A study of Caenorhabditis elegans with 3 samples.

Results

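The genes of fatty acid and lipid metabolism were examined for binding by NHR-25, a nuclear hormone receptor related to fly FTZ-F1 and mammalian SF-1, in Caenorhabditis elegans larvae of the L2 stage. The members were chosen by name, as protein-coding genes of the desaturase (fat), elongase (elo), acyl-CoA synthetase (acs), lipid-binding protein (lbp), acyl-CoA dehydrogenase (acdh), lipase (lipl), vitellogenin (vit) and carnitine palmitoyltransferase (cpt) families, with fasn-1, pod-2, sbp-1, mdt-15 and lpd-3 added. This gave 85 genes out of 19971 protein-coding nuclear genes. Binding was measured by chromatin immunoprecipitation and sequencing. The 3 biological replicates, all of mixed-sex whole larvae of strain OP33, make up 1 group. The worms carried the unc-119(ed3) mutation and the integrated transgene wgIs33, which encodes NHR-25 with GFP and FLAG at its C-terminus. All 3 replicates share both, so the binding is that of a tagged protein from a transgene present beside the worm's own gene, and chromatin of all tissues was mixed. Replicate 3 differed from replicates 1 and 2 in the labelled source of the worms and in the labelled handling of the chromatin, which leaves 1 replicate against 2 and allows no test. The control used in calling regions was not analysed here.

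Fatty acids are built from acetyl-CoA by acetyl-CoA carboxylase (pod-2) and fatty acid synthase (fasn-1), then lengthened by elongases and given double bonds by desaturases. Acyl-CoA synthetases activate free fatty acids. Carnitine palmitoyltransferases carry them into mitochondria, where acyl-CoA dehydrogenases begin their breakdown. In worms the intestine and the epidermis are the main sites of fat storage, and SBP-1, the SREBP homologue, and the Mediator subunit MDT-15 are known activators of desaturase genes. The gene acs-3 encodes an acyl-CoA synthetase, and the effect of its loss on fat uptake and storage is known to depend on nhr-25.

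A deposited list of 4548 reproducible regions (the optimal list) gave the bound sites, each with a summit and a signal from the authors' peak caller. The lists of the single replicates held 30000 regions each, peaks and background together, which were ranked by signal from 1, the strongest. A gene had a promoter site when the summit of an optimal region lay in a window around any of its annotated transcript starts, which reached 1000 bp upstream and 200 bp downstream. A replicate supported a site when one of its strongest 4548 regions overlapped it. Read counts are not part of these lists, and library depth is therefore unknown. Coordinates are those of the ce11 build. A summit called between genes lay outside protein-coding genes, and genes of other kinds were not searched. Signals of optimal nuclear regions ran from 107 to 2859. The nhr-25 and unc-119 genes, touched by the transgene, were set aside.

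Of the 85 lipid genes, 11 (12.9%) had a promoter site, while the share over all protein-coding genes was 13.4%. The count was therefore close to the background. The 11 genes were fasn-1, the desaturase genes fat-3 and fat-6, the elongase gene elo-1, the acyl-CoA synthetase genes acs-2, acs-4, acs-12, acs-13 and acs-17, the lipid-binding protein gene lbp-9 and the carnitine palmitoyltransferase gene cpt-2. In 7 of them (8.24%) a promoter site was supported by all 3 replicates, beside 8.27% of all genes. With 1 replicate left out and support required from both others, 7 genes kept a site without replicate 1, 8 without replicate 2 and 7 without replicate 3. Those lost in every case were acs-4, elo-1 and fat-6, and acs-12 was lost without replicate 1 and without replicate 3.

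Sequences are shown for 7 of the 13 promoter sites of these genes: those of lbp-9, cpt-2, acs-2 and acs-17 as sites that all 3 replicates supported, and those of the desaturase genes fat-3 and fat-6 and the elongase gene elo-1 as the sites of fatty acid modification. The motif counts given further on include these windows. Each run covers 101 bp centred on the summit in the RefSeq sequence of WBcel235, read 5′ to 3′ on the strand of its gene. Capitals mark matches, on either strand, to any of 7 motifs. The nuclear receptor half-site was searched as AGGTCA and its extended core as CAAGGTC. The FTZ-F1-type extended half-site was searched as NCAAGGNCN, with a pyrimidine at the first and middle N and a purine at the last. The E-box was CACGTG and the GAGA repeat GAGAGA. The GATA site was NGATAN, starting with A or T and ending with a purine. The sterol regulatory element of SREBP was searched in the short form TCACNCC. Matches can overlap each other, as AGGTCA and CAAGGTC do with the FTZ-F1-type site. The windows of lbp-9 and of acs-2 hold none.
lbp-9, chrV:2068208-2068308, plus strand: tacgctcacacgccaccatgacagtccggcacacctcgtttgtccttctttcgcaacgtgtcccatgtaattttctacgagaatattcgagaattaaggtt
cpt-2, chrIV:11179367-11179467, plus strand: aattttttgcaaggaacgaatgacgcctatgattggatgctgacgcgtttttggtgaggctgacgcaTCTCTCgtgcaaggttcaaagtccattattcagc
acs-2, chrV:15566638-15566738, plus strand: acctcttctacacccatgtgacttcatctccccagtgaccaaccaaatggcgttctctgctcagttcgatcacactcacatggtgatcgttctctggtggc
fat-3, chrIV:9803690-9803790, plus strand: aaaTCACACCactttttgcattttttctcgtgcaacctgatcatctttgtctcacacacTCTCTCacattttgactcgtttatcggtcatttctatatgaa
acs-17, chrX:5942227-5942327, minus strand: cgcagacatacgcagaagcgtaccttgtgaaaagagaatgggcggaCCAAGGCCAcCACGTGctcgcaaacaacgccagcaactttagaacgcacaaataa
elo-1, chrIV:9526144-9526244, plus strand: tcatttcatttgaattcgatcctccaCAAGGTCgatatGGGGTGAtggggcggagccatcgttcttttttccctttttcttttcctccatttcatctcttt
fat-6, chrIV:11914810-11914910, minus strand: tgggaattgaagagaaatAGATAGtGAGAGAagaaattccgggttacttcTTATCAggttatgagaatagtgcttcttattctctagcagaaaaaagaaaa

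In fat synthesis, fasn-1 (I, 8975366 to 8986540, minus strand), the single fatty acid synthase gene of the worm, had a promoter site whose summit lay 196 bp upstream of its start, between genes (I, 8986568 to 8986871, signal 291, rank 1135 in the optimal list). Its best promoter region ranked 1476 in replicate 1, 787 in replicate 2 and 1455 in replicate 3, so all 3 placed it well inside their strongest 4548. A weaker site followed 773 bp upstream (signal 122, rank 3857), with overlapping regions at ranks 3614, 5228 and 2950 in replicates 1, 2 and 3. Inside the gene, 2 further optimal summits fell in introns. One stood 561 bp past the start (I, 8985701 to 8986073, signal 285, rank 1169) and ranked 1317, 509 and 921 in the replicates, about as strong as the promoter site. The other, 2524 bp past the start (signal 127), was supported by 2 replicates. The fasn-1 locus thus held 4 optimal summits in all.

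The acetyl-CoA carboxylase gene pod-2 had no promoter site. Its best promoter region ranked 4355 in replicate 1, 22084 in replicate 2 and 3199 in replicate 3, which places replicate 2 apart from the others. An optimal summit inside pod-2 lay in an intron, 1593 bp upstream of its nearest annotated start (II, 1142112 to 1142501, signal 128), and was supported by replicate 3 only. The best promoter regions of lpd-3, which encodes a large conserved protein of lipid transfer, ranked 9037, 8807 and 7162 in replicates 1, 2 and 3, and those of mdt-15 ranked 12857, 12817 and 9524. All of these were outside the strongest 4548. The SREBP gene sbp-1 had no region in its promoter window among the 30000 of any replicate, and its nearest optimal summit was 2494 bp upstream.

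Desaturases introduce double bonds, with fat-5, fat-6 and fat-7 encoding the Δ9 enzymes and fat-1 to fat-4 those of polyunsaturated fatty acid synthesis. Of these 7 genes, 2 had a promoter site, beside 13.4% of all genes. At fat-3 (IV, 9803023 to 9806119, plus strand), the Δ6 desaturase gene, the site (IV, 9803545 to 9803934) had a signal of 237 and rank 1576, and its best promoter region ranked 1479, 2268 and 1981 in replicates 1, 2 and 3. All 3 replicates supported it. The summit lay in an intron, 717 bp downstream of the most upstream start, and counted because it was 778 bp upstream of a later start. At fat-6 (IV, 11913692 to 11915687, minus strand) the site was among the weakest of the optimal list, with a signal of 110 and rank 4411. Overlapping regions ranked 4227 in replicate 1 but 12221 in replicate 2 and 8902 in replicate 3. In replicate 2 the best promoter region of fat-6, at rank 10124, did not overlap the site. The summit of the site was again intronic, 827 bp past the most upstream start and 189 bp upstream of a later one.

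The other 5 desaturase genes had no promoter site. No replicate held any region in the promoter windows of fat-2, fat-5 and fat-7, and fat-1 had one only in replicate 3, at rank 29743. The best regions of fat-4 ranked 25849, 11572 and 27399. An optimal site upstream of fat-2, the Δ12 desaturase gene, fell just outside the window, with its summit 1222 bp before the nearest start (IV, 13322456 to 13322845, signal 193). It lay between genes, in no protein-coding gene's promoter window, and ranked 2576, 2917 and 1676 in the replicates. Another site supported by all 3 replicates followed the end of fat-1, which lies upstream of fat-2 on the same strand (IV, 13318756 to 13319145, signal 161). Both sites were therefore outside the definition of a promoter site.

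Among the 9 elongase genes 1 had a promoter site, beside 13.4% of all genes. This was elo-1, whose product lengthens polyunsaturated fatty acids. The site (IV, 9525999 to 9526388) had a signal of 150 and rank 2995. The summit lay 172 bp upstream of the most upstream start. Its best promoter region ranked 5712 in replicate 1, 4980 in replicate 2 and 2052 in replicate 3, so replicate 3 alone supported the site. This is the window with CAAGGTC. Downstream of elo-1 on the same strand, elo-7 had a summit in a coding exon (signal 122, supported by 2 replicates), and the site between both genes (IV, 9528634 to 9529023, signal 132) was 1118 bp upstream of elo-7, also outside the window. The remaining elongase genes, with elo-2 and elo-5 among them, had median ranks from 9189 upward or no region in at least 2 of the 3 replicates.

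Acyl-CoA synthetases, the largest of the families with 22 genes, gave 5 of the 11 genes with a promoter site. The share over all genes was 13.4%. The summit at acs-2, a mitochondrial acyl-CoA synthetase gene known as a target of NHR-49 in fasting, lay 706 bp upstream of its start between genes (V, 15566592 to 15566738, signal 265). It ranked 2021, 703 and 1633 in replicates 1, 2 and 3 and was supported by all of them. Under the rule that regions must share at least 50% of both lengths it was supported by 0 replicates, and with summits required to lie within 100 bp by 2. The optimal region is 147 bp wide. At acs-13 (I, 511044 to 519646, minus strand) the site was intronic, 2843 bp past the most upstream start and 406 bp upstream of a later one (I, 516608 to 516997, signal 293), with ranks of 688, 1440 and 1711. A further intronic summit of acs-13, 1077 bp past a start (signal 110), was supported by replicate 3 only. At acs-17 (X, 5937506 to 5944510, minus strand) the stronger of 2 sites was intronic as well (X, 5942082 to 5942471, signal 228). Its summit lay 218 bp upstream of a later start and 2233 bp past the first, and its ranks were 2373, 1757 and 1985. This is the window in which the FTZ-F1-type site CCAAGGCCA stood beside an E-box. The weaker acs-17 site, 50 bp upstream of the first start (signal 129), ranked 5380, 13941 and 3611 among overlapping regions and was supported by replicate 3 only.

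Support was incomplete at acs-12 and acs-4. The acs-12 site (V, 20903746 to 20903980, signal 229) lay 20315 bp from the right end of chromosome V. Overlapping regions ranked 1991 in replicate 1, 6428 in replicate 2 and 758 in replicate 3. In replicate 2 the best promoter region of acs-12, at rank 4946, did not overlap the site. The site stood closer to the start of amx-3, 151 bp away, than to that of acs-12, 304 bp away. The acs-4 site (III, 7166710 to 7167099, signal 112, rank 4314) was the only one of the 11 that no replicate supported, with overlapping regions at ranks 4796, 6338 and 6559. Its summit, 933 bp upstream, was also the one nearest to the limit of the window, and in replicate 1 the summit of the overlapping region fell outside it.

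The promoter of acs-3 (V, 1969528 to 1974514, plus strand), the acyl-CoA synthetase gene tied to nhr-25 in fat storage, showed no bound site. No region of replicates 1 and 2 had its summit in the window. Replicate 3 had one at rank 13895, outside its strongest 4548, and the nearest optimal summit was 8249 bp downstream of the start (rank 3624). Each list holds 30000 regions, and no signal was available for the rest of the promoter.

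**Figure D1:**
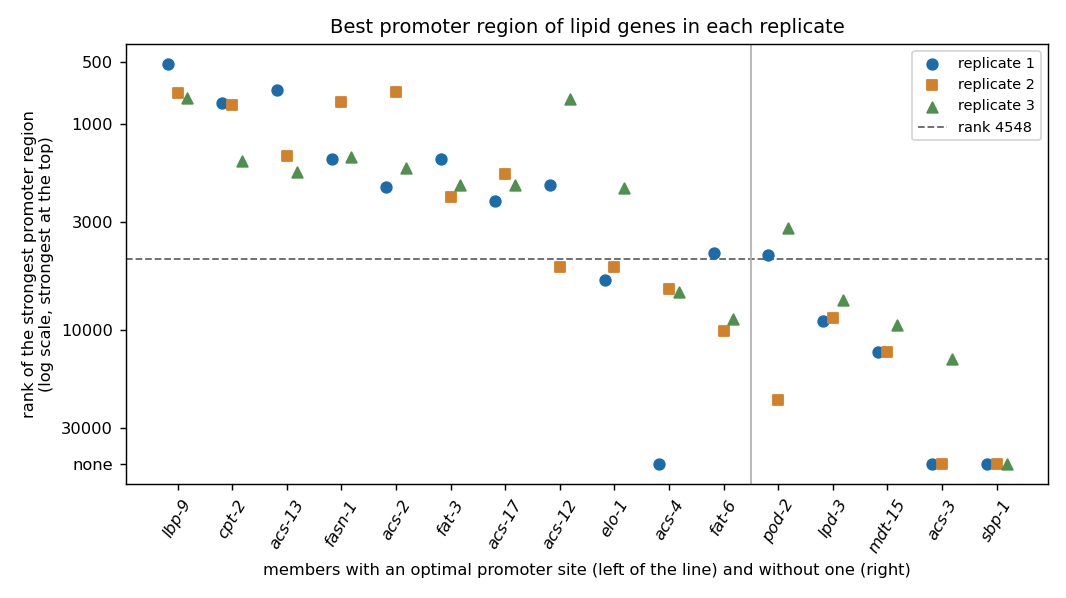
Rank of the strongest region with its summit in the promoter window (vertical axis, log scale, 1 being the strongest) for 16 lipid genes in replicates 1 (circles), 2 (squares) and 3 (triangles), with genes that had no such region at "none" and a dashed line at rank 4548. In 7 genes, from lbp-9 to acs-17, all 3 replicates lie above the line, while for acs-12, elo-1, acs-4 and fat-6 they straddle it or lie below it, and acs-3 has a region in replicate 3 alone.

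Lipid-binding proteins carry fatty acids and related ligands within and between cells. The site of lbp-9 (V, 2068096 to 2068434) was the strongest promoter site of all lipid genes, with a signal of 421 and rank 570. It lay between genes, 191 bp upstream of the start, with no other protein-coding start in reach. Its ranks were 513, 707 and 748 in replicates 1, 2 and 3, which lie close together. Of the 9 lbp genes 1 thus had a promoter site, beside 13.4% of all genes, and the other 8 had none. Of these, lbp-4 came nearest, at ranks 4860 and 4804 in replicates 2 and 3 with no region in replicate 1, while lbp-3 ranked 8739, 7843 and 22035. Upstream of lbp-5, all 3 replicates supported a site (I, 6733424 to 6733574, signal 243). Its summit lay 1243 bp from the start, outside the window, and no other protein-coding gene had it in reach.

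In fatty acid breakdown the site of cpt-2, a carnitine palmitoyltransferase gene, was second in strength (IV, 11179312 to 11179528, signal 348, rank 815). Its summit lay 228 bp upstream of the start, between genes, and 822 bp upstream of the start of C08F8.9. It ranked 790 in replicate 1, 807 in replicate 2 and 1513 in replicate 3. The best promoter regions of cpt-1 ranked 6355, 3682 and 5478, with no optimal site. Of the 13 acyl-CoA dehydrogenase genes, 0 had a promoter site, beside 13.4% of all genes. The nearest to one were acdh-12, at ranks 4388, 4261 and 5454 in replicates 1, 2 and 3, and acdh-9 at 5529, 5535 and 4339. In replicates 1 and 2 the region of acdh-12 was also the best promoter region of maoc-1, another gene of fatty acid breakdown. In an intron of acdh-7 a summit of rank 4004 in the optimal list was supported by replicate 2 only.

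Lipases of the lipl family release fatty acids in lysosomes or outside cells, and vitellogenins are the yolk proteins made by the adult intestine. They had a promoter site in 0 of 8 and 0 of 6 genes, beside 13.4% of all genes. Families this small say little about a difference from that share. All 6 vitellogenin genes had no region in their promoter windows in any of the 3 replicates. The same held for 6 of the 8 lipl genes. In the 2 others, lipl-7 had regions at rank 13394 in replicate 1 and 9684 in replicate 2, and lipl-5 at rank 15910 in replicate 2. Over all 85 genes, 27 had no region in any replicate, and among the 19971 genes 9220 had none.

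**Figure D2:**
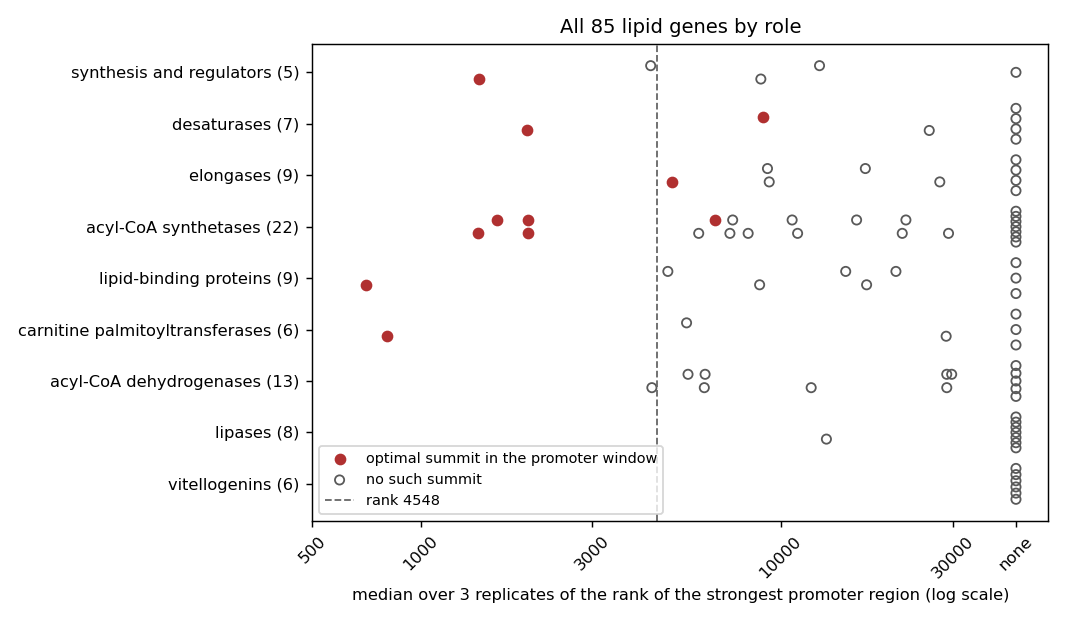
Median over the 3 replicates of the rank of each gene's strongest promoter region (horizontal axis, log scale), with 1 point for each of the 85 lipid genes by role and genes whose median replicate had no region at "none". Filled points are the 11 genes with an optimal promoter site and the dashed line is rank 4548. The filled points of lbp-9 and cpt-2 lie farthest left, and all 6 vitellogenin genes lie at "none".

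Among the members without a promoter site, those with the best median rank over replicates were pod-2 (4355), acdh-12 (4388), lbp-4 (4860), cpt-1 (5478) and acdh-9 (5529). These overlapped the weakest genes with a site, elo-1 at 4980, acs-4 at 6559 and fat-6 at 8902. The genes pod-2, acdh-12 and lbp-4 had better median ranks than elo-1, and all 5 had better ones than acs-4 and fat-6.

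The 13 promoter sites of the 11 genes had a median signal of 229, beside 196 over the 2350 promoter sites of all genes. The summit lay upstream of the start it was counted for at all 13, as it did upstream of the nearest start at 92.4% of all promoter sites. Distances ran from 50 to 933 bp upstream. In the 101 bp around the summit the GC content was 42.6% at the median of the 13 sites, from 33.7 to 51.5%, beside a median of 43.6% over all promoter sites. At 2 of the 13 sites, those of cpt-2 and acs-12, another protein-coding gene had the summit in its window too, whereas 23.7% of all promoter sites had at least 2 genes in reach. Of the members on chromosomes I, II and III, 2 of 11, 0 of 11 and 1 of 10 had a promoter site. On IV, V and X it was 4 of 17, 3 of 23 and 1 of 13. Over all genes of all chromosomes the share was 13.4%. Counts this small say little about any one chromosome.

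At 3 of the 11 genes, acs-13, fat-3 and fat-6, the site counted only through a start downstream of the first one (27.3%), and the summit lay in an intron of the gene itself. Over all genes with a promoter site, 220 of 2678 (8.22%) had one only through a later start. Only genes with at least 2 starts can count in this way, and these were 7 of the 11 lipid genes but 1159 of the 2678. The 2 shares are therefore not alike in what they could reach. With the most upstream start of each gene alone, 8 lipid genes had a promoter site, and 4 had one supported by all 3 replicates, since acs-17 also lost its stronger site. Many annotated starts of worm genes are trans-splice sites, so whether a downstream start is a separate promoter cannot be read from the annotation.

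**Figure D3:**
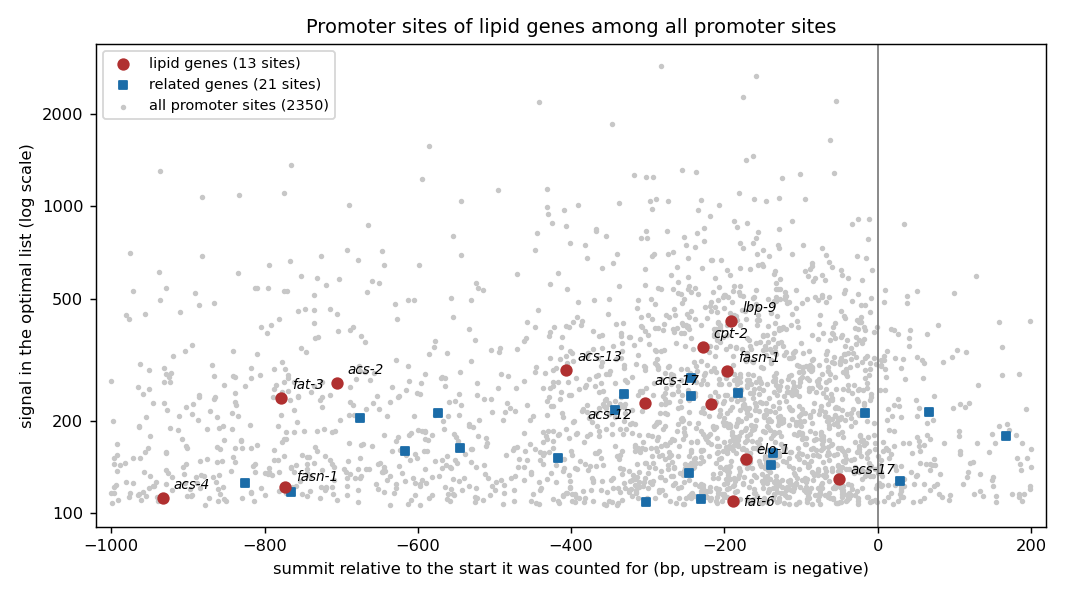
Signal in the optimal list (vertical axis, log scale) against the position of the summit relative to the start it was counted for (horizontal axis, bp, upstream negative), for the 13 promoter sites of lipid genes (circles, named), the 21 of related lipid genes (squares) and 2350 of all genes (small points). The lipid genes' sites lie from 933 to 50 bp upstream with signals from 110 at fat-6 to 421 at lbp-9, inside the cloud of all promoter sites.

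Within 50 bp of the summit, on either strand, 10 of the 13 sites held a match to at least 1 of the 7 motifs. The share of all promoter sites with at least 1 match was not counted, so this number has no background beside it. TCACNCC stood at 3 of 13 sites (23.1%), those of fat-3, elo-1 and acs-4, beside 3.11% of all promoter sites and 3.49% of all 4524 nuclear optimal summits. Of these sites, that of fat-3 was supported by 3 replicates, that of elo-1 by 1 and that of acs-4 by 0. The GAGA repeat stood at 5 of 13 (38.5%), at cpt-2, fat-3, acs-12, acs-4 and fat-6, beside 22.7% of all promoter sites, and the E-box at 2 (15.4%), the stronger site of acs-17 and the weaker one of fasn-1, beside 5.79%. AGGTCA was found at fasn-1 alone, CAAGGTC at elo-1 alone and the FTZ-F1-type site at acs-17 alone (7.69% each). Of all promoter sites, 5.57, 1.36 and 1.11% held them. The FTZ-F1-type pattern was added after the sequences had been seen, so its count at these sites cannot be weighed against that share. The GATA site was found at acs-13 and fat-6 (15.4%), beside 21.0%. A match describes the letters in a window, and with 13 sites each count rests on a few windows.

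The strongest optimal sites near lipid genes lay outside their promoter windows and were counted for other genes. The site past the end of acs-19 (III, 3867342 to 3867784, signal 2859) was 283 bp upstream of rpl-3, a ribosomal protein gene. The site 1522 bp upstream of lipl-2 (V, 9789869 to 9790223, signal 1023) was 338 bp upstream of ztf-7, and it ranked 92, 41 and 78 in the replicates. The site past the end of acs-20, an acyl-CoA synthetase gene (IV, 12391198 to 12391483, signal 550), was in the promoter windows of dpm-3 and rps-23. A weaker site in acs-20 was in no protein-coding gene's promoter window. Its summit was intronic, 1631 bp past the start (IV, 12396931 to 12397170, signal 349), and it ranked 785, 573 and 1320. A window reaching 2000 bp upstream gave 22 lipid genes (25.9%) with a site, beside 17.3% of all genes. Of the 11 genes added, 10 had the summit upstream of the gene, and 7 of these summits were in no protein-coding gene's promoter window of 1000 bp. The other was pod-2, whose intronic summit was in no such window either.

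The share of genes with a region was also read from the replicate lists. Within the strongest 4548 regions of replicates 1, 2 and 3, 12.9, 11.8 and 14.1% of the lipid genes had a promoter region, beside 13.5, 13.3 and 13.2% of all genes. In 7 lipid genes (8.24%) this held in all 3 replicates, beside 8.78% of all genes. Over all 30000 regions the shares were 47.1, 52.9 and 54.1% of the lipid genes, beside 37.4, 39.6 and 37.4% of all genes. Within the strongest 10000 they were 27.1, 31.8 and 32.9%, beside 21.8, 22.2 and 21.1%. At both wider limits the share of the lipid genes was above that of all genes in each replicate, and at 4548 it was above in replicate 3 only. The replicate lists hold peaks and background together, and no test was made of the difference.

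**Figure D4:**
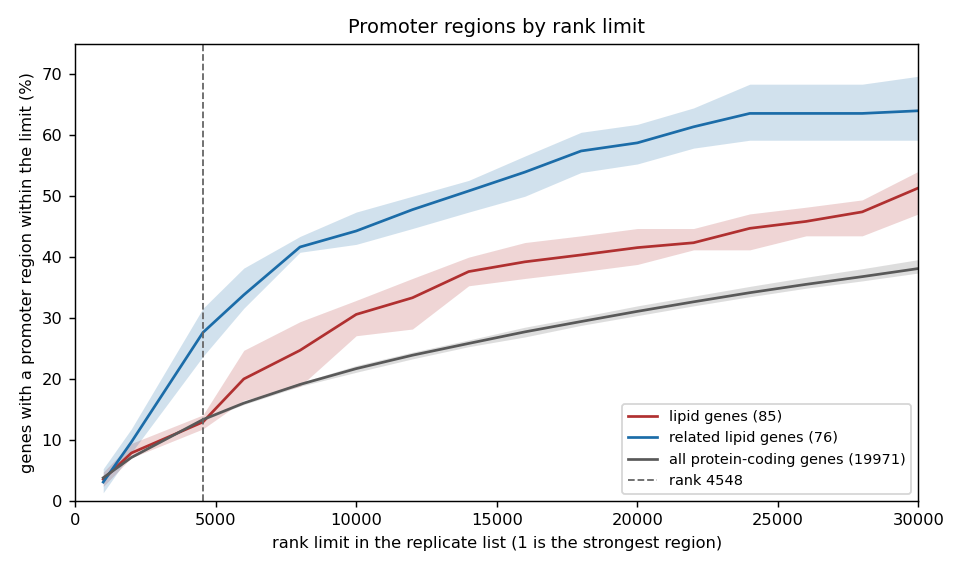
Share of genes with a region in the promoter window (vertical axis, %) within the rank limit on the horizontal axis, for the 85 lipid genes, 76 related lipid genes and all 19971 protein-coding genes. Lines are means of the 3 replicates, shaded bands run from the lowest to the highest replicate and the dashed line marks rank 4548, where the lipid genes and all genes lie between 11.8 and 14.1% in every replicate.

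The other genes of the pathway were taken from a list of 78 related genes, of which 76 were found. Of these, 17 (22.4%) had a promoter site, beside 13.4% of all genes, and in 9 (11.8%) all 3 replicates supported it, beside 8.27%. Within the strongest 4548 regions of replicates 1, 2 and 3, 27.6, 23.7 and 31.6% of them had a promoter region. In 13 (17.1%) this held in all 3 replicates, beside 8.78% of all genes. The count of 17 genes with a promoter site fell to 10 when sites had to recur in replicates 2 and 3. It was 13 without replicate 2 and 12 without replicate 3. The list was drawn up with earlier results of these data known, so it is described without a test.

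In triglyceride storage, 5 of 10 related genes had a site, beside 13.4% of all genes. Among them were seip-1, which encodes the lipid droplet protein seipin (V, 6053391 to 6053606, signal 277), and plin-1, the perilipin gene (signal 246). Further ones were mboa-2, an acyl-CoA:diacylglycerol acyltransferase gene (218 and 143), and atgl-1, the adipose triglyceride lipase gene (135 and 126). The remaining one was lid-1, whose product binds ATGL-1 (111). The seip-1 site ranked 1314, 1799 and 1383 in replicates 1, 2 and 3, and that of lid-1 ranked 3551, 9383 and 6834. The seip-1 and plin-1 sites were supported by all 3 replicates and the lid-1 site by replicate 1 only. The stronger mboa-2 site was supported by 2 replicates and the weaker one by 3. For the atgl-1 sites the support came from 2 replicates and 1. The lid-1 summit was closer to the start of mrpl-34, 180 bp away, than to that of lid-1, 230 bp away. The 12 phospholipid genes include genes of phosphatidylcholine and ether lipid synthesis and of the sensing of membrane fluidity. Of them, 4 had a site, beside 13.4% of all genes. These included pmt-1 and pmt-2, the phosphoethanolamine methyltransferase genes (163 and 214), and sams-1, the S-adenosylmethionine synthetase gene (159 and 128). The other was cept-1 (205), whose site lay in an intron of the neighbouring nhr-27 gene. All 3 replicates supported the sites of pmt-2 and cept-1, and 2 supported each site of pmt-1 and sams-1.

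Of 6 nuclear receptor genes known for fat metabolism, 3 had a site, beside 13.4% of all genes. At nhr-49, a receptor gene that acts on desaturase and acs-2 expression, 2 sites were found (I, 9869210 to 9869404, signal 245; I, 9870897 to 9871286, signal 158), and both were supported by all 3 replicates. The site of nhr-80 (212) was supported by all 3 and that of nhr-66 (109) by 2. The nhr-80 summit was closer to the start of H10E21.1, 329 bp away, than to that of nhr-80, 574 bp away. Beta-oxidation genes gave 4 of 25, which is near that share, with ech-5 (242), ech-1.2 (178) and both propionyl-CoA carboxylase genes, pccb-1 (151) and pcca-1 (117). All 3 replicates supported the ech-5 site, and 2 supported each of the others. The ech-5 summit was closer to the start of F56B3.11, 208 bp away, than to that of ech-5, 244 bp away. The acyltransferases gave 1 of 13, acl-14 (212), with support from all 3 replicates. No optimal summit lay in the windows of acl-1 and of cept-2, a phospholipid gene, although both had strongly ranked promoter regions. These ranked 1341, 949 and 803 in replicates 1, 2 and 3 for acl-1, and 372, 975 and 362 for cept-2. The acyl-CoA binding proteins gave 0 of 6. For the elongation partners let-767 and hpo-8 and the yolk uptake receptors rme-2 and lrp-1 it was 0 of 2 each. Groups this small say little about a difference from the 13.4% of all genes.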

How the data were processed

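Regions of tagged NHR-25 in 3 biological replicates were used as deposited on ce11. Per the note deposited with the files, each replicate and a pool of all 3 had regions called against 1 control file, and the optimal list holds those passing a threshold on reproducibility (irreproducible discovery rate). Aligner, peak caller, versions and threshold remain not given in the sources used here. Each region's deposited signal, whose scaling is not stated, was used to rank and describe regions within a list, so signals of different lists were never compared. The position of the summit was taken from the deposited offset, a number of bp with no other unit. The note derives the optimal list from the pooled list, but only 1802 of the 4548 optimal regions have the coordinates of a pooled region; signals printed are those of the optimal list. Overlap meant at least 1 bp.

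Gene models were those of Ensembl release 115 (WBcel235, the assembly of ce11), with the starts of all transcripts of protein-coding genes, and sequence came from RefSeq's copy of that assembly. RefSeq gave 84 of the 85 names to a gene. A gene without a region in its window was ranked 30001. Tools were Python 3.11.15, pandas 2.3.3 and numpy 2.4.6, and the assignment of summits to starts was checked on planted summits. Members and lists were chosen with earlier results of these data known, and the FTZ-F1-type site was added to 6 other motifs after the sequences had been seen. No test was run, since there is 1 group and no control sample, and shares cover all genes of the set named. Genes named were all members with a promoter site, acs-3, the 5 genes named singly, the fat and vit genes, the 5 members without a site of best median rank, members with a summit inside the gene and related genes with a site. Others, named as neighbours or as related genes without a site, were chosen after their values were seen.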

Additional observations from a re-analysis of the deposited data

How the results depend on the processing

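The count of 11 lipid genes with a promoter site stayed within 1.5 times under a window of 500 bp, nearest starts, the stronger 2274 regions, any overlap of region and window, the most upstream start and, chosen after seeing the data, protein-coding transcripts alone. It was 22 with a window of 2000 bp. It was 7 to 8 when each replicate was left out in turn and both others had to support the site. The count of 11 required no such support, so under this rule it could not rise. Genes supported by all replicates, 7 in number, were 13 with 2000 bp and 4 with the most upstream start. Without 1 replicate they were 7 to 8, which is the same count as the 7 to 8 above and no separate check. Related genes with a site, 17 in number, were 9 in the stronger 2274 regions. They were 10 to 13 without 1 replicate, where both others again had to support the site. The replicates supporting each gene's strongest site, summed to 25 over 11 genes, were 22 to 32 under the 4 other rules of support. The mean over replicates of the members' median best rank was 29043, near the value for no region, so it says little; it was 30001 with 500 bp and in the pooled list, 13003 with 2000 bp, 23286 with any overlap, 8032 (8005 over all genes) without the genes that had no region, and 28565 to 29454 without 1 replicate. No paired analysis was possible because there is 1 group. Depth was unknown, so weak sites such as those of acs-4 and fat-6 cannot be separated from noise by counts.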
